A study of Mus musculus with 12 samples.

Results

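The comparison set microglia of 24-month-old mice against microglia of 14-month-old mice, both without LPS challenge, and held 4 of the 12 ATAC-seq libraries of the series, 2 per age. Its members were the libraries titled with those ages and with PBS, the vehicle given in place of LPS. All mice were female and of WT genotype, the brains were taken without cerebellum, and each library pooled microglia of 2 to 3 mice, so the p-values below measure the spread between such pools and not between single animals. The study's methods describe sorted living CD11b+ CD45low cells and the labels' protocol also nuclei of frozen tissue, and which input these libraries had was not settled. The other 8 libraries came from 3-month-old mice given PBS or LPS and from 14- and 24-month-old mice given LPS, a bacterial cell wall component that is sensed through Toll-like receptor 4.

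ATAC-seq uses a transposase that inserts sequencing adapters into DNA that is not wrapped tightly in nucleosomes, so a peak marks accessible chromatin, such as an active promoter or enhancer. Microglia are the macrophages of the brain parenchyma. Their enhancers are opened by the lineage factor PU.1 with partners of the C/EBP, RUNX, MEF2 and IRF families, while stimulus-dependent enhancers are bound by AP-1 (dimers of Fos and Jun proteins) and NF-kB, which act downstream of Toll-like receptor 4.

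Peak lists of the 4 libraries were merged where peaks overlapped by at least 1 bp, which gave 44755 regions on mm10. A region was called gained when both 24-month lists and neither 14-month list held a peak in it, and lost in the reverse case. There were 1669 gained regions (3.73% of all) and 374 lost regions (0.836%), while 32356 regions had a peak in all 4 libraries and are called shared below. Another 1715 regions had a peak in 1 library of each age. As a set, the gained regions held the AP-1 motif in 22.6% of summit windows against 11.3% over all regions. Within the shared regions, 601 (1.86%) rose and 263 (0.813%) fell in peak area from 14 to 24 months under limma with Benjamini-Hochberg adjustment. Both counts were 0 with a variance that does not follow the mean area, on within-list percentiles of area, and with all 12 libraries in the fit. Without normalization 695 were called higher and 10 lower. The risen regions included the promoters of Tnf and Cxcl2. Most of the risen and most of the fallen regions also differed in the same direction between LPS and PBS in 3-month mice, whose libraries played no part in the calls.

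Sequences from the center of regions called in this comparison are printed here because they show the motifs that the counts below rest on. Each is the plus strand of mm10 from the reference genome, 5′ to 3′, and capitals mark matches to the motifs AP-1 (TGANTCA), C/EBP (TTGCNNAA), PU.1 (GAGGAAGT), RUNX (AACCACA) and NF-kB (GGGANTTCC), each searched on both strands, and to MEF2. The first pair are gained regions, the next 4 are shared regions that rose, and the last pair are a lost region and a shared region that fell.
Specc1l, chr10:75170607-75170727, gained: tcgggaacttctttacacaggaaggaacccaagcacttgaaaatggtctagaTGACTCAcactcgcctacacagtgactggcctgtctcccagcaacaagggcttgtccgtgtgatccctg
Mefv, chr16:3723380-3723571, gained: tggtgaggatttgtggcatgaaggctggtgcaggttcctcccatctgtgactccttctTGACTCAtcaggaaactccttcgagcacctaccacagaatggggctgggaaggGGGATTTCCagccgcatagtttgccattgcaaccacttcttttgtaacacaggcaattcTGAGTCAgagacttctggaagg
Cxcl13, chr5:95914151-95914271, rose: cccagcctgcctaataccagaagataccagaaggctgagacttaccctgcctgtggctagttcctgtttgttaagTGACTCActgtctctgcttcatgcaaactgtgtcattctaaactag
Nfkbia, chr12:55480993-55481216, rose: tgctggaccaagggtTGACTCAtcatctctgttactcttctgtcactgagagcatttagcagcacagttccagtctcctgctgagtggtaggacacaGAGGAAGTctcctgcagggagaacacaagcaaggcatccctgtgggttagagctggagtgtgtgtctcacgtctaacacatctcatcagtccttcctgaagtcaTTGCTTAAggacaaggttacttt
Lgals3, chr14:47374546-47374666, rose: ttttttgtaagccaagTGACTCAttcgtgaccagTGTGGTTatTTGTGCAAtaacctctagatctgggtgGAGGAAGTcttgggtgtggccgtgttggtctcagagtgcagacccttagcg
Slc11a1, chr1:74381588-74381708, rose: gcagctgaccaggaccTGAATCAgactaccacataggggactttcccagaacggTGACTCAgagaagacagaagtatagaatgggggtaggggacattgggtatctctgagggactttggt
Arhgef10l, chr4:140622860-140622994, lost: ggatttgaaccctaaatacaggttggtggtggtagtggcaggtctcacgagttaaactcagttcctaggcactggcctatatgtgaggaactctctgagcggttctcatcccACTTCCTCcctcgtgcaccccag
Cx3cr1, chr9:120068190-120068378, fell: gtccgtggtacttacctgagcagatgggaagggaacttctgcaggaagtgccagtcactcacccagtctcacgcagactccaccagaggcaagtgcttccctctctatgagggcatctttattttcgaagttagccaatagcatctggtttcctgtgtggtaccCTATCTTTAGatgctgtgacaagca

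In the Specc1l and Mefv windows an AP-1 match lay 8 and 2 bp from the peak summit, and the Mefv window held another AP-1 match and an NF-kB match. AP-1 matches lay 15 bp from the summit near Cxcl13, 91 bp near Nfkbia, 44 bp at Lgals3 and 6 bp in Slc11a1, and the Lgals3 promoter window also held C/EBP, RUNX and PU.1 matches. A match describes the letters only and is no evidence of binding in these cells.

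The 24-month lists held 39096 and 41532 peaks and the 14-month lists 35952 and 40574 (40314 ± 1723 against 38263 ± 3268, SD, n = 2 each), a difference of 2051 that lay within the spread between libraries (exact two-sided permutation test, p = 0.667). Peaks were wider at 24 months, with medians of 416 and 419 bp against 351 and 374 bp, and covered 19.9 and 21.2 Mb against 15.2 and 18.5 Mb. The groups did not overlap in either measure, but 2 against 2 libraries cannot give a p below 0.333, which both reached. Of the 15 defining microglia markers, 13 and 13 had a promoter peak at 24 months and 13 and 14 at 14 months, including P2ry12, Tmem119, Cx3cr1, Csf1r and Trem2. Of the 20 lymphocyte markers none had a promoter peak in the 4 libraries, and of the 15 granulocyte markers 2 did in each. For astrocytes, oligodendrocytes, neurons and endothelial cells 1 to 4 markers had one per library. Of 15 markers of border macrophages and monocytes, 3 and 2 had one at 24 months and 0 and 0 at 14 months. How deeply each library was sequenced cannot be read from peak lists, which hold no read counts.

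Gained regions were mostly weak peaks. Each peak was ranked by its percentile of peak area within its own list, and the median gained region stood at percentile 12 and 14.5 in the 2 libraries of 24 months. There were 16 and 33 of the 1669 that lay above the median of their list, and 70.0% and 61.3% had an area under 300, where the lowest area in the lists is 200. Lost regions ranked lower still, with median percentiles of 7.30 and 11.7 in the 14-month libraries and none above the list median. The highest percentiles were 65.2 and 71.1 in the gained set and 34.8 and 41.9 in the lost set.

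The share of promoters among gained regions lay between that of lost regions and that of all regions. A promoter peak, with its summit within 1 kb of a transcription start site (TSS), made up 21.4% of gained regions (358), 6.68% of lost regions (25) and 30.3% of all regions. The median distance to the nearest TSS was 6.52 kb for gained, 11.9 kb for lost and 5.10 kb for all regions. Introns other than the first held 22.0% of gained and 35.0% of lost regions, beside 21.7% of all. Median GC content of the summit windows was 49.2% in both gained and lost regions and 51.8% over all regions.

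Among gained regions nearest to protein-coding genes, an intronic region of Bcr, nearest to the TSS of Specc1l (41.4 kb, chr10:75170285-75170826), had the highest mean percentile. It ranked at 63.0 and 71.1 in the 24-month libraries and was called in both LPS libraries at 3 months and in neither PBS library of that age. The promoter of Cxcr4, the receptor for the chemokine CXCL12, was gained at percentiles 60.9 and 62.6 (chr1:128591926-128592738), and a second region 22.7 kb from its TSS ranked at 63.2 and 36.0. A shared region in the first intron of Cxcr4 also rose, by 0.71 ± 0.17 on the log2 scale (limma, adjusted p = 0.0490). The region near Cd300e, an activating myeloid receptor, ranked at percentiles 63.7 and 55.7, and that near Mefv, which encodes the inflammasome protein pyrin, at 40.9 and 62.7. Gained promoters included those of Klrg2 (55.7 and 52.6), of Cldn12, which encodes a claudin (47.9 and 56.6), and of Ass1, the argininosuccinate synthase (41.3 and 58.3). The 12 strongest also included regions nearest to Fam71a, Csmd2, Tmem230, Lmnb1, Sgms1 and Lyl1, at percentiles between 44.3 and 70.2.

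Some genes had several gained regions. There were 16 with 3 or more gained regions nearest to them, among 5421 genes with 3 or more regions of any kind, and 1 with 3 lost regions, the pseudogene Gm5356. The 16 genes had between 3 and 20 regions each. Fam71a had 4 gained regions of the 7 nearest to it, the strongest at percentiles 61.3 and 70.2 (chr1:191165463-191167074), and one of the 4 lay in an intron of Atf3, which encodes a stress-induced factor that pairs with AP-1 proteins. None of the 4 was called in the 3-month or 24-month LPS libraries. The 3 gained regions nearest to Gm26626 lay in Runx1, which encodes the RUNX factor of the blood lineage, and ranked low, between percentiles 1.77 and 18.9. Other protein-coding genes of this kind were Mdfic, with 3 gained of 3 regions, Chst1 (3 of 6), Ass1 (3 of 7), Rab7b and Prkag2 (3 of 9 each), Trps1 (3 of 10), Rftn1 (4 of 11), Sgms1 (3 of 16) and Ptk2b (3 of 20). Gained and lost regions both occurred at 36 genes.

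Among list genes, gained regions near genes of actin, adhesion and migration numbered 12 of 231 (5.19%), with 4 lost, and those near genes of lipid handling 6 of 101 (5.94%), with 0 lost. Over all protein-coding genes the shares were 3.42% gained and 0.633% lost of 28595 regions. The promoter of Cd44, the hyaluronan receptor, was gained at percentiles 41.6 and 50.6, and that of the complement gene C3 at 35.9 and 45.2. Plin2, the coat protein of lipid droplets, had a gained region 20.4 kb from its TSS (41.8 and 45.5). Near inflammatory genes 4 of 85 regions were gained, at Ccl4, Ccl7, Il1a and Nfkbiz, all at or below percentile 20.6. Near homeostatic microglia genes 2 of 123 were gained and 2 lost, and near Toll-like receptor 4 pathway genes and antigen presentation genes none of 47 and none of 56 were gained or lost. Among clock genes 4 of 58 were gained, at Cry1, Nfil3, Per2 and Rora, and 1 was lost, the promoter of Arntl (percentiles 14.7 and 20.6 at 14 months), which encodes BMAL1. The other lists of microglial functions and pathways had 1 to 5 gained and 0 to 2 lost regions each. Markers of several other cell types had larger gained shares than all protein-coding genes, each from few regions. Of 15 regions near border macrophage and monocyte genes 3 were gained (20%), at Clec12a, Mrc1 and Pf4. Near neuronal markers 2 of 6 were gained (33.3%, Elavl4 and Rbfox3), near endothelial and pericyte markers 3 of 25 (12%, Flt1, Pdgfrb and Vwf), near lymphocyte markers 2 of 18 (11.1%, Cd2 and Klrb1c) and near granulocyte markers 2 of 19 (10.5%, Csf3r and Ltf), while 1 of 27 oligodendrocyte regions (3.70%, Mbp), 0 of 8 astrocyte regions and 0 of 78 regions near microglia defining markers were. The region near Cd2 ranked at percentiles 30.9 and 37.3, and the others at or below 26.6. Of these markers' regions 1 was lost near the granulocyte list (Csf3r) and 1 near the microglia markers (Csf1r). The part of other cells in the gained set was not tested.

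Lost regions were few and weak. The strongest lay in an intron of Zfhx3, which encodes a homeobox factor (chr8:108697565-108698023; 20.8 and 41.9 at 14 months), and next came first-intron regions of Ptprm, a receptor phosphatase (25.7 and 35.2), and of Arhgef10l, a guanine nucleotide exchange factor (26.8 and 33.3; the PU.1 match of the sequence above lay 52 bp from its summit). The Arhgef10l region was called in both 3-month PBS libraries at percentiles 47.6 and 59.7 and in neither 3-month LPS library. A lost region in the first intron of Slc7a8, an amino acid transporter, was called in all 8 other libraries. The promoter of Angptl7 was lost at percentiles 22.3 and 28.9. Csf1r, the receptor on which microglia survival depends, had a lost region near its TSS (20.9 and 22.0), while its promoter peak was called in all 4 libraries.

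The gained and lost regions were then looked up in the 8 libraries that had no part in their choice. Gained regions were called in 8.51% and 18.0% of cases in the 3-month PBS libraries and in 51.8% and 52.4% of cases in the 3-month LPS libraries. Over all regions these shares were 76.0% and 81.7% with PBS and 81.7% and 79.9% with LPS. Lost regions went the other way, with 49.5% and 69.8% called with PBS and 35.6% and 24.6% with LPS. In total, 517 gained regions (31.0%) were called in both 3-month LPS lists and neither 3-month PBS list, beside 4.40% of all regions and 10.4% of the 1715 regions called once at each age. The reverse pattern was seen in 87 lost regions (23.3%), 13 gained regions (0.779%) and 2.73% of all regions. Genes near such gained regions included Specc1l, Mefv, Tmem230, Sgms1 and C3. In the LPS libraries of 14-month mice 43.9% and 22.8% of gained regions were called, beside 75.9% and 59.9% of all regions. In those of 24-month mice 50.7% and 34.9% were called, beside 73.3% and 79.8% of all. In none of the 8 libraries were 379 gained (22.7%) and 49 lost regions (13.1%) called, beside 7.08% of all.

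**Figure D1:**
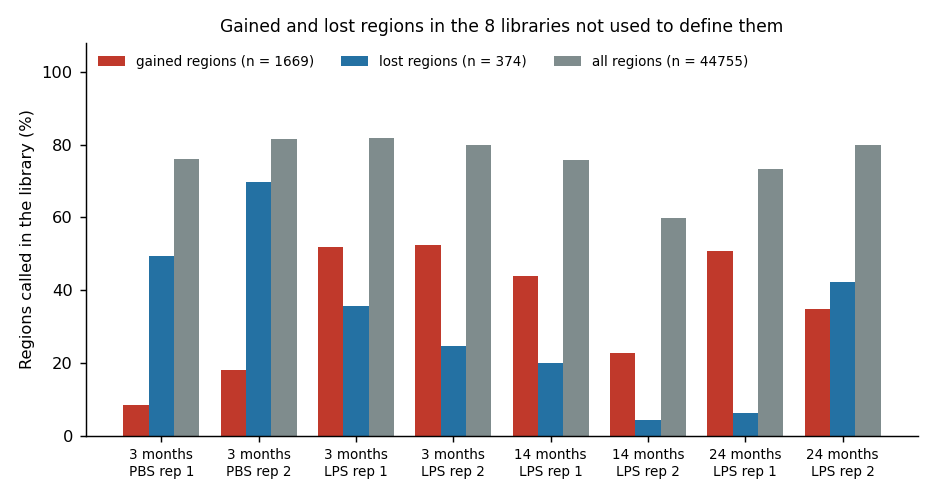
Bars give the percentage of gained, lost and all merged regions that were called in each of the 8 libraries not used to define them, from 3-month PBS at the left to 24-month LPS at the right. The gained bars stand at 8.51% and 18.0% in 3-month PBS and at 51.8% and 52.4% in 3-month LPS, while the bars of all regions stay between 59.9% and 81.7%.

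The surplus of gained over lost regions moved with the length of the lists. When each list was cut by peak area to the length of the shortest, 35913 peaks, gained regions numbered 1181 and lost regions 737, and 669 (40.1%) and 191 (51.1%) of the original members were called again. Without replicate 1 of the 14-month libraries, the shortest list, the counts were 1919 gained and 1806 lost, and without replicate 2 of that age 4360 and 627. Without replicate 1 of 24 months they were 3734 and 656, and without replicate 2 of that age 2588 and 1245. Of the gained regions called at both list lengths, 42.0% were called in both 3-month LPS lists and neither 3-month PBS list, and 27.4% held the AP-1 motif.

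Motifs were counted in windows of 301 bp around each region's summit. The AP-1 motif was held by 378 gained regions (22.6%), by 8.29% of lost regions and by 11.3% of all regions, and in distal regions, over 1 kb from a TSS, by 25.5%, 8.60% and 13.7%. The C/EBP motif was held by 18.3% of gained, 13.6% of lost and 12.5% of all regions, and the RUNX motif by 10.7%, 5.61% and 7.75%. The PU.1 motif was held by 11.8%, 12.8% and 11.5%. Motifs of GC-rich promoters were held by smaller shares of gained than of all regions, with SP1 (GGGGCGGGG) at 3.71% against 7.84% and ETS (CCGGAAGT) at 0.779% against 2.82%. Regions called once at each age held the AP-1 motif in 8.22% of windows.

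Peak area was next compared in the 32356 shared regions. The summed area of the peaks in a region was taken as log2, quantile-normalized over the 4 libraries and tested with limma, so a change is relative to the bulk of the shared regions. In these terms 601 regions near 573 genes rose and 263 regions near 246 genes fell at an adjusted p under 0.05 (limma), by medians of 0.68 and -0.51 on the log2 scale. At an unadjusted p under 0.05 there were 3536 and 3196. Before normalization, the area as deposited was higher at 24 months in the median shared region by 0.20 on the log2 scale. The 601 risen regions had both 24-month values above both 14-month values in deposited area too, as 47.4% of all shared regions did. Of the 263 fallen regions 150 (57%) had both values below in deposited area, beside 4.83% of all, and 14 had a higher mean at 24 months. Without normalization the fit called 695 regions higher and 10 lower, so the fall of the 263 regions is a fall relative to other regions. The calls rested on the variance model and the libraries in the fit. With a variance that does not follow the mean area limma called 0 regions in either direction (2806 and 2858 at an unadjusted p under 0.05). With all 12 libraries in the fit it also called 0 (1812 and 1817). The variance model does not enter the log2 change, so the directions could not differ in the former fit.

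**Figure D2:**
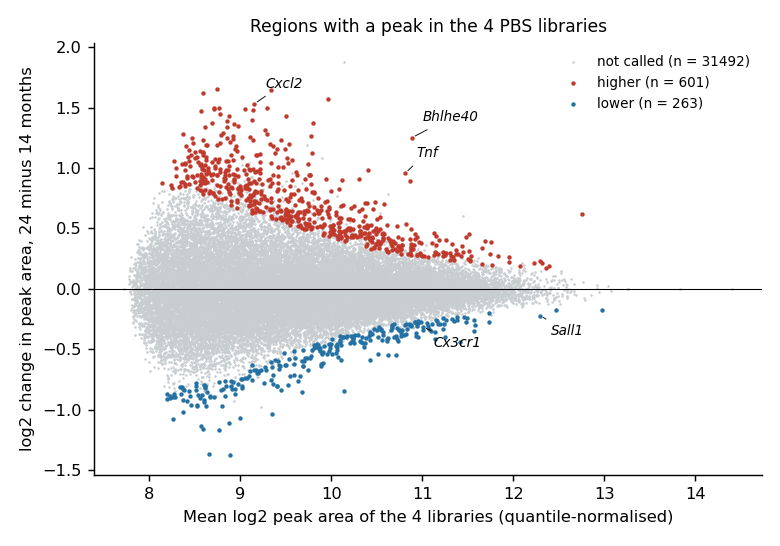
Each point is 1 of 32356 shared regions, with the mean log2 peak area of the 4 libraries on the x axis and the log2 change from 14 to 24 months on the y axis, both after quantile normalization. The 601 regions that rose reach 1.66 and the 263 that fell reach -1.38, and smaller changes are called where areas are large.

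Risen regions were mostly promoters, and fallen regions were mostly distal. A promoter was the site of 51.6% of risen regions (310), 9.89% of fallen regions (26) and 36.0% of all shared regions. Median widths were 790, 611 and 525 bp, and median distances to the nearest TSS 0.88, 10.9 and 3.84 kb. The AP-1 motif was held by 24.6% of risen, 8.75% of fallen and 10.4% of all shared regions. In the same order, NF-kB was held by 4.49%, 2.28% and 2.60%, and SP1 by 15.6%, 1.52% and 9.62%. The CRE motif (TGACGTCA) was held by 3.49%, 0.380% and 1.74%. The PU.1 motif was held by 16.3% of fallen regions, beside 7.99% of risen and 11.6% of all, and the RUNX motif by 11%, beside 6.99% and 7.38%. The MAF motif was held by 4.94% of fallen regions, 13 in number, beside 0.166% of risen and 0.723% of all. Peaks of shared regions were wider in both 24-month libraries than in both 14-month libraries in 48.8% of the 30608 regions with 1 peak in each library, and narrower in 3.55%, so width moved with age across regions in general and its part in the areas was not tested.

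Inflammatory cytokine and chemokine genes held 7 risen regions among 63 shared ones (11.1%) and none that fell. Over all shared regions 1.86% rose and 0.813% fell. The median log2 change was 0.12 over the 63 and -0.02 over all shared regions. The promoter of Tnf, the central inflammatory cytokine, had deposited areas of 2855 and 2641 at 24 months and 902 and 1539 at 14 months (chr17:35201049-35202700). Both 24-month values lay above both 14-month values, and the normalized change was 0.96 ± 0.12 (SE; adjusted p = 0.00359, limma). Peak area is not RNA. For RNA of PBS-treated mice the study reported more Tnf in middle-aged than in young microglia, and reduced levels in aged ones. It also named Tnf among genes that rose with age in its female or male mice. The promoter of Cxcl2, a neutrophil-attracting chemokine, had areas of 841 and 1298 against 286 and 360 (chr5:90903087-90904026), a change of 1.53 ± 0.19 (adjusted p = 0.00359, limma). The distal region of Cxcl13, a B cell chemokine, had areas of 695 and 821 against 222 and 269 (42.7 kb from the TSS, chr5:95914077-95914455) and rose by 1.49 ± 0.18, and a second one 37.4 kb from it rose by 0.86 ± 0.17. The remaining 3 lay near genes that restrain or tune NF-kB. A region 11.5 kb from Nfkbia, the gene of the inhibitor IκBα, went from 205 and 311 to 840 and 687 (1.49 ± 0.21), and regions near Nfkbiz and Tnfaip3, the gene of A20, rose by 0.79 ± 0.12 and 0.79 ± 0.19. The Tnfaip3 call was lost without any 1 of 3 libraries, replicates 1 and 2 of 24 months and replicate 2 of 14 months, whereas those of Tnf, Cxcl2, Nfkbia, Nfkbiz and the first Cxcl13 region held with any 1 library left out.

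Disease-associated microglia genes held 3 risen regions of 47 (6.38%, beside 1.86% of all shared regions), and none fell. The promoter of Lgals3, which encodes galectin-3, went from areas of 215 and 309 to 578 and 639 (chr14:47374402-47374711; 1.13 ± 0.19, adjusted p = 0.0143, limma). That of Apoe, the lipid carrier, went from 200 and 223, at the floor of the peak caller, to 401 and 403 (0.88 ± 0.20, adjusted p = 0.0416, limma), and that of the tetraspanin gene Cd63 rose by 0.43 ± 0.10. The Apoe and Cd63 calls were lost without either 24-month library and without replicate 1 of 14 months. Lipid handling genes held 6 risen regions of 78 (7.69%), among them those at Abcg1, Apoe and Cd36, and 1 that fell, at Rxra. The larger of the Cd36 regions, in the first intron of this scavenger receptor gene, had areas of 1200 and 1289 against 218 and 578 (chr5:17854233-17854961; 1.64 ± 0.27, adjusted p = 0.0127, limma). The calls at the Abcg1 promoter and at Rxra and that of the weaker Cd36 region were each lost without at least 1 of the 24-month libraries. A region in Slc11a1, the phagosomal metal transporter gene, went from 220 and 439 to 963 and 971 (chr1:74381411-74381996; 1.49 ± 0.21, adjusted p = 0.00728, limma).

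The clock gene list held 4 risen regions of 46 (8.70%). The smallest p of the fit was that of a region 1.12 kb upstream of the TSS of Bhlhe40, a transcriptional repressor of the clock and of macrophage genes, in a first intron of the overlapping genes 0610040F04Rik and Gm17055, with areas of 3122 and 3276 against 897 and 1399 (chr6:108659182-108660952; 1.25 ± 0.09, adjusted p = 0.000203, limma). Per2 rose in its first intron by 0.95 ± 0.21, next to a gained region, and Csnk1d and Rora rose at their promoters by 0.52 ± 0.12 each. The senescence list held 4 of 47 (8.51%), at the promoters of Cdkn2a (p16 and p19 cell cycle inhibitors), Bcl2 and Hmga1 and in an intron of Lmnb1. The Cdkn2a promoter had areas of 1129 and 1260 against 348 and 808 (0.94 ± 0.22, adjusted p = 0.0416, limma). Antigen presentation genes held 3 of 43 (6.98%), at Cd74, H2-Aa and H2-Ab1, with changes of 0.40 ± 0.09, 0.75 ± 0.16 and 0.42 ± 0.09. These 3 calls, and those of Csnk1d, Rora, Bcl2 and Cdkn2a, were each lost without replicate 1 or replicate 2 of the 24-month libraries, whereas those of Bhlhe40, Per2, Hmga1 and Lmnb1 held with any 1 library left out. Actin, adhesion and migration genes held 5 of 173 (2.89%), beside 1.86% of all. Among called regions outside the lists the largest rises were near Hspb7, a small heat shock protein gene (209 and 278 to 760 and 886, 1.66 ± 0.18), in an intron of Raet1e, nearest to the TSS of Raet1d, both of which encode ligands of the receptor NKG2D (1.62 ± 0.19), and at the promoter of Crlf2, a cytokine receptor gene (341 and 854 to 1936 and 1846, 1.57 ± 0.23).

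Other lists held few calls, to be read beside 1.86% risen and 0.813% fallen of all shared regions. Chromatin and DNA methylation regulators held none of 49, myeloid transcription factors 1 risen region of 146 (the Tcf4 promoter) and 1 that fell (Sall1), immediate early genes 1 of 66 (the Ier3 promoter), iron handling genes 1 of 26 (Slc11a1), interferon response genes 1 of 27 (the Ifi204 promoter), Toll-like receptor 4 pathway genes 1 of 39 (the promoter of the co-receptor gene Cd14), TGF-beta signaling genes 2 of 90 (Skil and Tgif1), glycolysis and mitochondrial genes 2 of 50 (Gapdh and Pkm), and phagocytosis and lysosome genes 2 risen (both Cd36) and 2 fallen (Gas6 and Tfeb) of 100. Genes that the study itself found to rise with age in RNA of such mice held 6 risen regions of 72 (8.33%) and none that fell, and those it found to fall held 0 and 1 of 70. Gas6 and Fth1 were left out of both lists because the study places them in both directions. Gas6 had a fallen and a lost region, and Fth1 a gained one. The lists were chosen on related samples and are not independent evidence of a direction. Of the other cell types' markers 1 region rose, in an intron of the endothelial gene Flt1, and none fell.

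**Figure D3:**
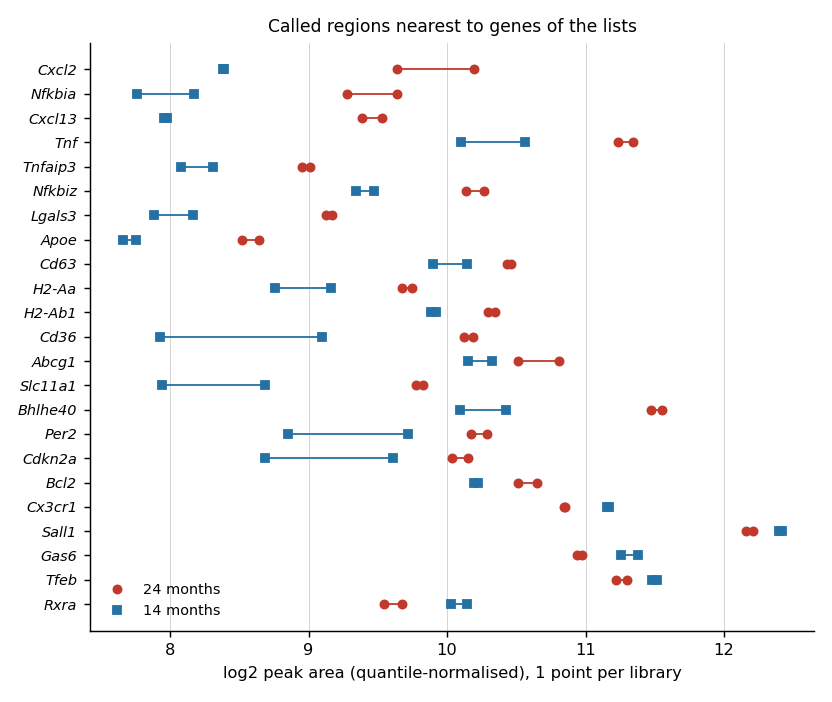
Each row is 1 called shared region, named by its nearest gene, and each point is the quantile-normalized log2 peak area of 1 library, circles for 24 months and squares for 14 months. From Cxcl2 to Bcl2 the 24-month points lie to the right of the 14-month points, and from Cx3cr1 to Rxra they lie to the left.

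Homeostatic microglia genes held 3 fallen regions of 92 (3.26%, beside 0.813% of all shared regions) and none that rose, with a median log2 change of -0.15. At the promoter of Cx3cr1, the fractalkine receptor gene, the normalized log2 areas were 10.85 and 10.85 at 24 months and 11.17 and 11.16 at 14 months (chr9:120068016-120069034; -0.31 ± 0.06, adjusted p = 0.0253, limma). In the first intron of Sall1, a transcription factor gene of microglial identity, they were 12.16 and 12.21 against 12.42 and 12.40 (chr8:89042517-89044420; -0.22 ± 0.04, adjusted p = 0.0151, limma), and a region 14.7 kb from the Csf1r TSS fell by 0.46 ± 0.10. In deposited areas the groups overlapped at Cx3cr1 (2021 and 2029 against 1897 and 2311) and at Sall1 (5037 and 5101 against 4549 and 5453), where the change without normalization was 0.025. The Sall1 and Csf1r calls were lost without replicate 1 of 24 months, and the Cx3cr1 call without either library of that age. Gas6, whose product bridges dying cells to the receptors Axl and Mertk, Tfeb, a regulator of lysosomal genes, and Rxra, the partner of nuclear receptors, fell by 0.36 ± 0.06, 0.24 ± 0.06 and 0.48 ± 0.11 at regions 9.59 to 16.9 kb from their TSS. Among called regions, larger falls were seen near genes with no listed role, at Ccdc162 (494 and 737 to 225 and 300; -1.37 ± 0.19, adjusted p = 0.00708, limma), at Rtf2 (-1.17 ± 0.18) and at a pair of regions near Gm49010 (-1.16 ± 0.19 and -1.04 ± 0.15).

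In the 3-month libraries, which had no part in the fit, most regions that rose from 14 to 24 months also stood higher with LPS. Of the 513 risen regions called in the 4 libraries of 3 months, 374 (72.9%) had both LPS percentiles above both PBS percentiles and 23 (4.48%) below, beside 31.3% and 28.3% of 29206 shared regions. Median percentiles of these 513 were 50.1 with PBS and 71.4 with LPS at 3 months, with a median difference per region of 13.3. Over all 601 risen regions they were 47.9 and 71.0 at 14 and 24 months with PBS, with a median difference of 22.3. The latter values come from the libraries that chose the regions, so the sizes of the 2 shifts cannot be compared. Of the 237 fallen regions, 195 (82.3%) had both LPS values below both PBS values and 8 (3.38%) above. The Cxcl2 promoter went from percentiles 38.3 and 42.5 with PBS to 85.0 and 84.8 with LPS at 3 months, the Tnf promoter from 76.0 and 81.3 to 94.2 and 96.7, and Bhlhe40 from 11.1 and 2.45 to 65.4 and 96.3. The Cxcl13 and Hspb7 regions had no peak in the 3-month PBS libraries and ranked at 20.2 and 60.6, and at 64.6 and 67.5, with LPS. The Cx3cr1 promoter went the other way, from 94.6 and 94.9 to 83.2 and 88.4.

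**Figure D4:**
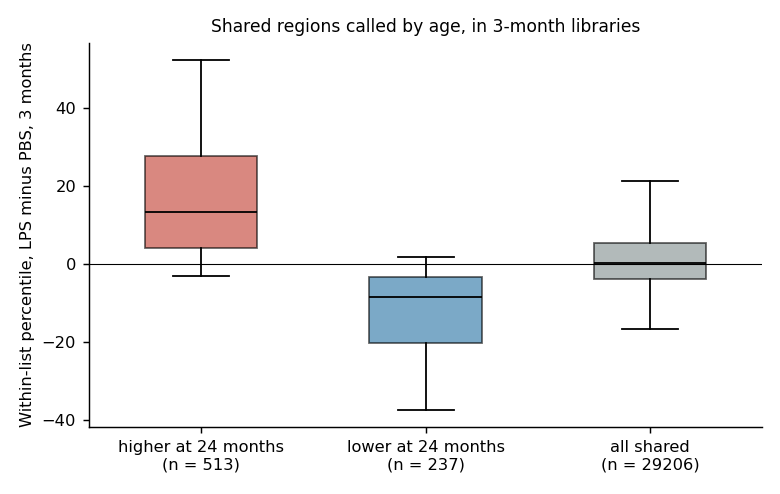
Boxes give the difference of the mean within-list percentile between the LPS and PBS libraries of 3-month mice, over shared regions that rose with age, that fell with age and over all shared regions, with the median as a line, quartiles as the box and whiskers from percentile 5 to 95. Medians are 13.3, -8.58 and 0.16.

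Between the LPS libraries of 24 and 14 months, 33.4% of 512 risen regions had both 24-month values above both 14-month values and 9.77% below, beside 30.0% and 11.2% of 24613 shared regions. For the 191 fallen regions the shares were 6.81% above and 9.95% below. A test of the difference itself, the interaction of age and treatment in limma over 24660 regions called in the 8 libraries of 14 and 24 months, called 0 regions at an adjusted p under 0.05 and 3017 at an unadjusted p under 0.05. Without replicate 1 of the 24-month LPS libraries it called 2357, without replicate 2 of them 2 and without replicate 1 of the 14-month LPS libraries 3, so whether the age difference depends on treatment was not resolved with these libraries.

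The genes of the gained and lost regions were compared with those of the called shared regions. Of the 1537 genes nearest to a gained region 81 (5.27%) were also nearest to a risen shared region, which is 14.1% of the 573 genes with a risen region. Another 21 had a fallen region, 1.37% of the 1537 and 8.54% of the 246 genes with one, while 6.22% of the 16933 genes with any shared region had a gained one. Of the 358 genes with a lost region 20 (5.59%) also had a fallen one, which is 8.13% of 246, and 8 (2.23%) had a risen one, which is 1.40% of 573, beside 1.55% of the 16933. These shares do not allow for the number of regions per gene. Cxcr4, Per2, Cd36, Lmnb1, Rora, Tgif1, Nfkbiz and Flt1 had a gained and a risen region, Csf1r and Gas6 a lost and a fallen one, and Rxra gained regions and a fallen one.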

How the data were processed

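Female mice of WT genotype aged 14 and 24 months received PBS, and microglia of 2 to 3 mice were pooled per ATAC-seq library, 2 libraries per age. Sorting of living CD11b+ CD45low cells comes from the study's methods, while the labels' protocol also describes nuclei from frozen tissue, and which was used was not settled. Per the study's methods and the submitters' processing notes, reads were trimmed with Cutadapt 2.8, aligned to mm10 with Bowtie2 2.4.1 and stripped of duplicates with SAMtools, and peaks were called with Genrich on each library. Genrich was run with default parameters as far as stated, and a read shift for the Tn5 cut site is not given in the sources used. The deposited lists hold for each peak a score, which is its area and is 200 or more, and the authors' −log10 p-value at the summit. Areas were not normalized between libraries, and with no read counts depth is unknown, so no interval for counting error is given.

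Peaks on the assembled chromosomes were merged at 1 bp overlap, assigned to the nearest TSS of the GENCODE M21 basic annotation (promoter: within 1 kb) and searched for 18 consensus motifs on both strands of 301 bp summit windows in the reference genome GRCm38. Gained and lost regions were counted without a test. For regions called in all libraries compared, log2 summed area was quantile-normalized and tested with limma 3.58.1 (R 4.3.3, eBayes with trend, Benjamini-Hochberg adjustment, threshold 0.05), and the same model gave the interaction of age and treatment. These steps were tested on simulated data. For the limma fits all simulated regions had the same spread, so the variance trend was not tested. Values per library were compared with an exact permutation test (scipy 1.17.1). Regions named are the 12 strongest gained and lost ones near protein-coding genes, the strongest 5 promoters, up to 4 per list, genes with 3 or more such regions and the 10 largest changes in each direction, and called shared regions near list genes were named after their values were seen. The members and the gene lists were chosen with earlier results of these data known. Alternatives covered list length, the peak threshold, overlap, merging, normalization, score, variance model, samples in the fit and each library left out. The 29 to 40 peaks per library outside the assembled chromosomes were not used. Some items are not reported here.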

Additional observations from a re-analysis of the deposited data

How the results depend on the processing

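Cutting the lists to equal length changed the counts to 1181 gained and 737 lost regions, and merging windows around summits to 1728 and 712. Leaving out the lowest 25% of each list gave 1190 and 274 regions, but only 191 and 3 of the original members were among them, since the members were weak peaks. With 1 library left out the counts ranged from 1919 to 4360 gained and from 627 to 1806 lost. The rule is looser with fewer libraries, so each of these sets held all of the original members. The promoter share of gained regions was 24.1% at equal length, 28.9% where a call required 50% of the region to be covered, and 18.9% to 21.3% with 1 library left out. The AP-1 share of gained regions was 24.0% at equal length and 19.1% under the coverage rule, beside 11.3% of all regions. With 1 library left out it was 17.7% to 21.2%, in sets that include the original members and so are no separate check. The AP-1 share of lost regions was 7.46% to 8.77% over the same settings. With the 3-month lists cut to 35538 peaks each, 26.1% of gained regions were in both LPS and neither PBS list, and 26.2% of lost regions in the reverse (chosen after seeing the data).

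Shared regions called higher and lower numbered 1081 and 462 with median centering, and 0 and 0 on within-list percentiles (3227 and 3112 at an unadjusted p under 0.05, limma). They numbered 385 higher with the lower 50% of areas left out, 753 lower on summit significance, and 695 and 10 without normalization (chosen after seeing the data). With all 12 libraries in the fit they were 0 and 0 (1812 and 1817 unadjusted), and without the variance trend 0 and 0. Without replicate 1 or 2 of 24 months they were 396 and 100 or 339 and 269, and without replicate 1 or 2 of 14 months 597 and 202 or 2227 and 873, with the lone library assumed to vary like the other group. Of the 601 and 263 regions, 422 of 525 and 252 of 262 were called again with the 3-month PBS libraries added. Among the regions in each fit, the directions held in all settings for the 601 except 4 on summit significance, and for the 263 except 3 there and 14 without normalization. Several settings could hardly change them. The fits without the variance trend and with a replicate block leave the log2 change as it is. The groups did not overlap in any of the 601 and 263, nor in 16790 of all 32356 shared regions. Leaving out 1 library could thus hardly reverse the direction of a called region. Among the regions named, Sall1 (0.025) and Tfeb (0.028) turned positive without normalization and Abcg1 (-0.074) negative on summit significance. A replicate block gave 1055 and 505, with all of the 601 and 263 kept, but same-numbered libraries deviated together with a correlation of 0.03 across regions, so they share only a number. The interaction count was 0 to 2357 with 1 library left out and 0 with a replicate block. The difference in peaks per library was -260 to 4362. The causes of these shifts were not tested.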
